A study of Gallus gallus with 24 samples.

Results

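The probes described here are the 378 cDNA clones whose identifiers start with DKFZ426, out of 15609 chicken probes tested on a spotted 2-colour array. They were taken by that prefix and not by their values. Earlier results of these data were known when the choice was made. The array compared spleen and cecum RNA of chicks of 3 lines, Fayoumi, broiler and Leghorn (G-B1 in the labels), 16 h or 2 h after a challenge with SE, an abbreviation the labels leave unexpanded. On each array, RNA from 3 birds challenged at day 1 of age was set against RNA from 3 unchallenged birds of that age. The 12 groups of line, tissue and time had 2 arrays each, the second titled as a replicate, except broiler cecum at 16 h, for which 1 array was used. Whether a replicate array held fresh birds, the first array's pools again, or those pools with swapped dyes is not in the labels. P-values thus measure only the spread between arrays, which may be technical.

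DKFZ is the name of the German Cancer Research Center, and clone names of the form dkfz426 are also known from sequence tags of chicken bursal lymphocytes. The file does not state where the clones on this array came from. The bursa of Fabricius is the organ in which chicken B cells mature and diversify their antibody genes, and B cells leave it to settle in spleen and in the lymphoid tissue of the gut, including the cecal tonsils. Spleen filters blood and starts responses to blood-borne microbes, and the cecum is the main gut site that enteric bacteria colonise in young chicks. The file pairs no clone with a gene, and the reference gene table matched 0 of the 378 identifiers, so the clones are given by identifier, with neither gene roles nor sequences, and neither the library's origin nor the tissues could be checked against marker genes.

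The values are taken as log2 ratios of the 2 channels, the base being inferred, with each array's median over the tested probes subtracted. A clone at 0 thus had the ratio of the middle probe of its array. The labels leave the dyes unnamed, and arrays of 1 group opposed each other in several groups, so the direction of the ratio is not settled. Values are given as positive or negative as deposited, and a positive value is not read as more RNA in challenged birds. Deposited array medians ran from -2.05 to 1.27, and the centred medians of the plant gene control spots ran from -0.88 to 2.08. All 378 clones had a value on all 23 arrays. With 2 arrays, the 95% interval of a clone's group mean reached a median of 0.86 to either side, and with 1 array 1.22. In whole tissue, fewer cells of a type and less RNA per cell cannot be told apart.

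The library moved as a body from array to array. Its median on an array lay between -0.64 and 0.69, above 0 on 11 arrays and below 0 on 12. The share of clones above 0 on an array ran from 20.1% to 82.5%, where the centring puts 50.0% of all probes. The library's median had the same sign as that of the Pat clones on 23 arrays and as that of the DT40subNB clones on 21. It had the opposite sign to that of the C00041 clones on 22, but these are 11447 of the probes each array is centred on, so the centring itself sets them against the smaller groups of clones. It shared its sign with the plant spots on 3 arrays. The part of the plant spots, or of what they follow, in the library's level was not tested.

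In spleen the library's level followed the titled round of arrays and not the line. At 16 h the first arrays had library medians of -0.20 in Fayoumi, -0.04 in broiler and -0.16 in Leghorn. The arrays titled as replicates had 0.21 in Fayoumi, 0.34 in broiler and 0.15 in Leghorn. At 2 h the first arrays had 0.19 in Fayoumi, 0.15 in broiler and 0.15 in Leghorn, and the replicate arrays had -0.38, -0.45 and -0.64 in the same order of lines. In every spleen group the 2 arrays thus lay on opposite sides of 0, and the side of each round was the same in all 3 lines.

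In cecum the 2 arrays of a group had library medians of 1 sign in 3 of the 5 groups with a pair. In Fayoumi cecum at 16 h the medians were 0.16 and 0.69, and at 2 h they were -0.26 and -0.13, so the 2 times did not overlap. In broiler cecum the single 16 h array had 0.01 and the 2 h arrays had -0.23 and -0.32. In Leghorn cecum the arrays opposed each other, with -0.15 and 0.48 at 16 h and -0.05 and 0.55 at 2 h.

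**Figure D1:**
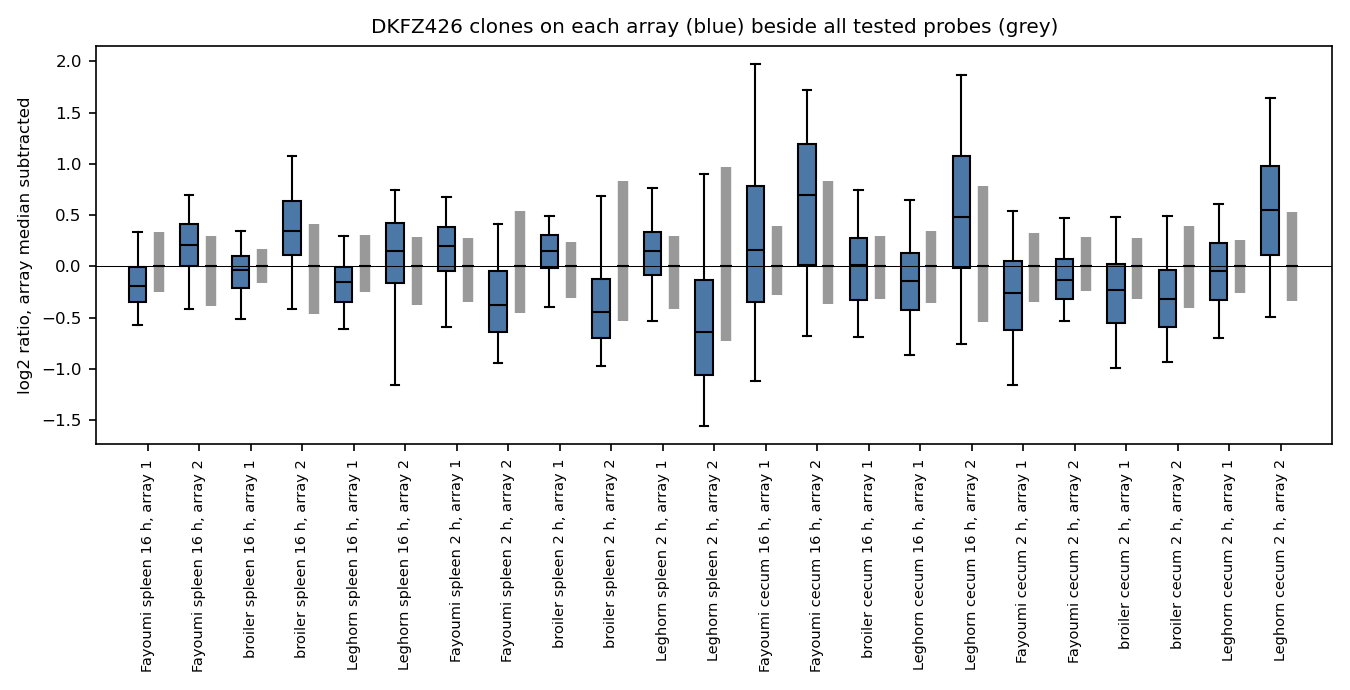
Log2 ratios of the 378 DKFZ426 clones on each of the 23 arrays, with the array median of all tested probes subtracted. Blue boxes span the quartiles of the clones with a line at the median and whiskers to the 5th and 95th percentiles, and grey bars span the quartiles of all tested probes. The medians of the boxes run from -0.64 on the second Leghorn spleen array at 2 h to 0.69 on the second Fayoumi cecum array at 16 h.

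The typical clone varied less than the typical probe in spleen and more in cecum. Over the spleen arrays the median SD of a clone was 0.48, against 0.54 for all tested probes, and over the cecum arrays it was 0.65, against 0.54. Within an array, the SD over the clones ran from 0.26 to 0.89, against 0.28 to 1.21 over all probes, and it was above that of all probes on 2 arrays. These were the first Fayoumi cecum array at 16 h, with 0.89 for the clones against 0.72 for all probes, and the 16 h array of broiler cecum, with 0.55 against 0.49. Spleen and cecum arrays were on slides of separate number ranges, 40 to 53 for spleen and 1735 to 1789 for cecum. Tissue and slide number range thus cannot be told apart.

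The order of the clones was hardly shared by the 2 arrays of a group. Pearson's r over the 378 clones, given as a description because clones on an array share its labelling and its slide, was below 0 in 6 of 11 pairs and above 0.3 in 0. In spleen at 16 h it was -0.30 in Fayoumi, -0.03 in broiler and 0.24 in Leghorn, against -0.65, -0.14 and 0.08 over all probes. In spleen at 2 h it was -0.42, -0.25 and -0.04, against -0.51, -0.59 and -0.40. In each of these 6 spleen pairs r over the clones was higher than over all probes. In cecum at 16 h r was 0.24 in Fayoumi and -0.20 in Leghorn, against 0.54 and -0.31 over all probes. In cecum at 2 h it was 0.25 in Fayoumi, 0.12 in broiler and 0.03 in Leghorn, against 0.28, 0.29 and 0.09.

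**Figure D2:**
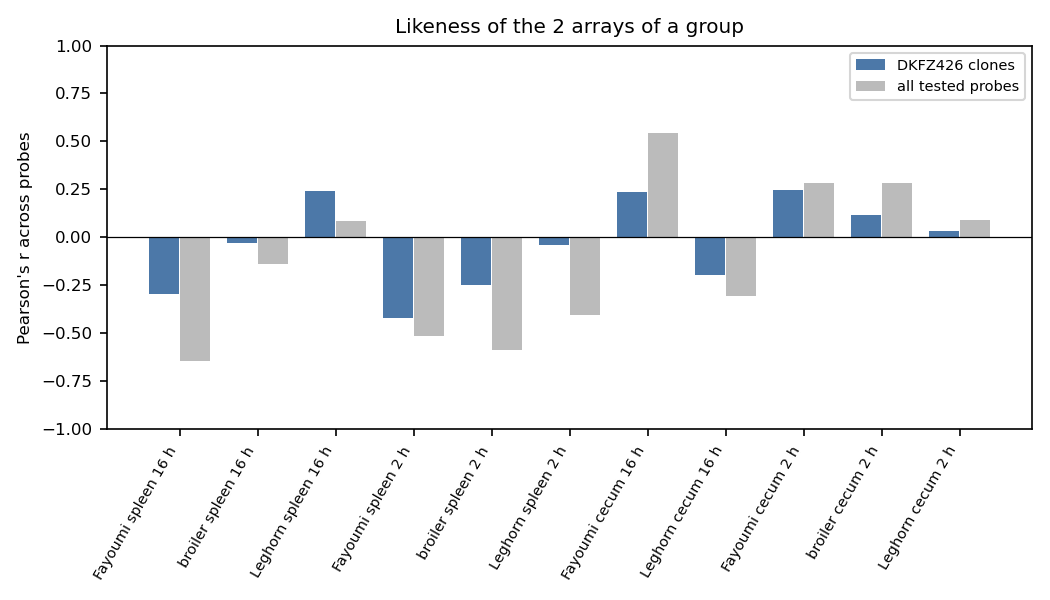
Pearson's r between the 2 arrays of each group, over the 378 DKFZ426 clones (blue) and over all 15609 tested probes (grey), for the 11 groups with a pair. Blue bars run from -0.42 in Fayoumi spleen at 2 h to 0.25 in Fayoumi cecum at 2 h, and 6 of the 11 lie below 0.

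The cecum of Fayoumi chicks at 16 h held most of the clones that departed from 0. Of the 378 clones, 19 (5.03%) passed in limma (adjusted p under 0.05), against 500 of all 15609 probes (3.2%). All 19 were positive, but so were 499 of the 500 probes, so the sign was not particular to the library. The median clone mean in that group was 0.33, with quartiles of -0.07 and 0.92, against a median of -0.02 over all probes. That level was not particular to the library: the median was 0.43 over the DT40subNB clones and 0.33 over the Pat clones. Over the C00041 clones it was -0.10. A group mean above 1, a ratio above 2 if the inferred log base holds, was held by 75 clones (19.8%), and 0 clones lay below -1. Of all probes, 13.3% lay beyond 1 in either direction. On both arrays 45 clones (11.9%) exceeded 1, against 8.42% of all probes, and 0 clones and 0% of all probes lay below -1 on both. At an unadjusted p below 0.05 there were 94 clones (24.9%), against 15.5% of all probes. Whether the library's share of calls differs from that of the other probes was not tested.

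DKFZ426_9H18 had the smallest adjusted p of the library there. Its ratios were 2.55 and 1.60 on the 2 Fayoumi arrays at 16 h, a mean of 2.08 (SE 0.35, n = 2 arrays, adjusted p = 0.0130 in limma). DKFZ426_2P19 had the highest mean, 2.31 (SE 0.51, adjusted p = 0.0251), with 2.73 and 1.88 on the arrays. DKFZ426_18F20 had 2.61 and 1.88, a mean of 2.25 (SE 0.46, adjusted p = 0.0217). All 3 thus read at least 1.60 on either array, far above the library's medians of 0.16 and 0.69.

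DKFZ426_9I24 had nearly equal ratios of 2.09 and 2.06 (mean 2.08), DKFZ426_7D4 had 2.31 and 1.84 (2.07), and DKFZ426_19D16 had 1.85 and 2.22 (2.03). DKFZ426_14F20 had 2.29 and 1.72 (2.01). DKFZ426_20D19 had 2.44 and 1.35 (1.89). Of these 5 clones, DKFZ426_20D19 had the widest gap between its arrays. DKFZ426_29H1 had 1.77 and 1.74 (1.75), DKFZ426_19E16 had 1.68 and 1.73 (1.71), DKFZ426_13P5 had 2.00 and 1.32 (1.66), DKFZ426_9G2 had 1.98 and 1.33 (1.65) and DKFZ426_19O22 had 1.49 and 1.72 (1.60). DKFZ426_9H14 had 1.98 and 1.13 (1.55), DKFZ426_13K3 had 1.39 and 1.67 (1.53), DKFZ426_13J2 had 1.26 and 1.49 (1.37), DKFZ426_6H6 had 1.24 and 1.47 (1.35), DKFZ426_6I10 had 1.02 and 1.61 (1.32) and DKFZ426_8O11 had 1.19 and 1.33 (1.26). The first array read higher in 11 of the 19 clones. Adjusted p-values ran from 0.0130 to 0.0462 in limma. The identifiers place the 19 clones on 11 of the library's 24 plate numbers, with at most 4 on 1 plate.

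The call needs both Fayoumi arrays. It was lost when either of the 2 was left out, which leaves the group a single array. Turning the sign of the replicate arrays also left 0 of the 378 clones past the threshold. For the called clones this follows by arithmetic, since each was positive on both arrays. Their means then show only the gap between the 2 arrays, and ran from -0.30 to 0.54. Dependence on the deposited signs was thus not tested for them. The call also rests on the centring, since 0 passed with the values as deposited, whose medians on these 2 arrays were -1.04 and 0.56. DKFZ426_8O11 also lost its call with cecum fitted alone (adjusted p = 0.0558 in limma).

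In the values as deposited, the 19 clones were not above the other clones throughout. Their median was above that of the other clones on 9 of the 21 other arrays and below it on 12. Arrays of several groups opposed each other, so this count does not show how far the 19 departed from 0 elsewhere. In Fayoumi cecum at 2 h, 11 of the 19 were negative on both arrays and 1 was positive on both. Of all 378 clones, 194 were negative and 55 positive on both of those arrays. DKFZ426_9H18 had -0.21 and -0.39 there, DKFZ426_2P19 had -0.15 and -0.33, and DKFZ426_18F20 had -0.32 and -0.36. In all 19, both Fayoumi arrays at 16 h lay above both at 2 h. The difference, 16 h minus 2 h, ran from 1.03 to 2.65 with a median of 1.94, and none passed, with adjusted p-values of 0.154 to 0.355 in limma. With array weights 58 clones of the library passed in this difference, DKFZ426_9H18 among them (adjusted p = 0.0021 in limma). The share of all probes with array weights is not given here, so that count is not read as particular to the library. The clones were chosen for their height at 16 h, so the direction of this difference follows in part from the choice. It was positive in 300 of all 378 clones, and the order of the single arrays was not counted over them.

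At 16 h, 18 of the 19 lay higher on both Fayoumi cecum arrays than on both Leghorn cecum arrays, and 19 of 19 lay higher than on the broiler array. The 19 were chosen for their height on those Fayoumi arrays, so this order follows in part from the choice. It was not counted over the other clones and is not read as particular to the 19. Fayoumi minus Leghorn ran from 0.76 to 2.82 (median 1.55, adjusted p 0.300 to 1.00 in limma), and Fayoumi minus broiler from 0.83 to 2.81 (median 1.87, adjusted p 0.371 to 0.796). A difference between lines was thus not shown for any of the 19. Over all 378 clones, Fayoumi minus Leghorn was positive in 232 and Fayoumi minus broiler in 251. The 2 Leghorn arrays at 16 h were unlike: DKFZ426_2P19 had -0.29 and 1.81 on them, DKFZ426_9I24 had -1.08 and 1.79, and DKFZ426_9H18 had -0.89 and -0.61. On the second Leghorn array the median of the 19 was 0.87, where the library's own median was 0.48. On the broiler array 12 of the 19 were positive, with a range of -0.73 to 0.83.

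**Figure D3:**
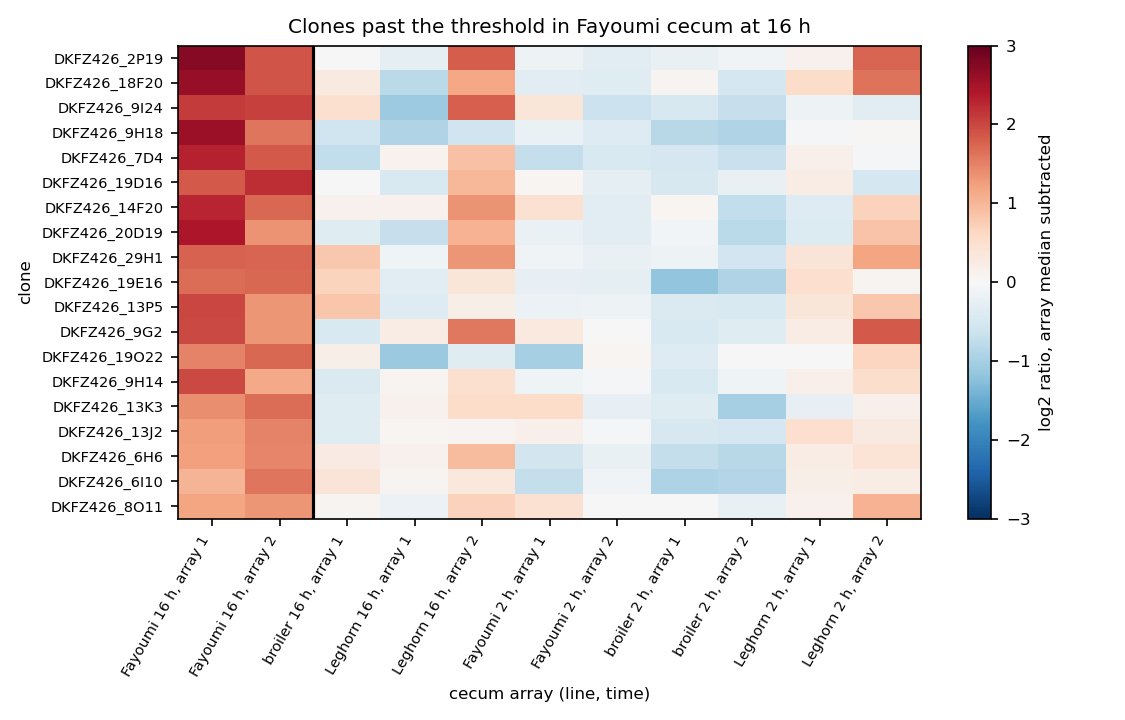
Log2 ratios, with the array median subtracted, of the 19 DKFZ426 clones past the threshold on the Fayoumi cecum arrays of 16 h (rows, highest mean at the top) on the 11 cecum arrays (columns). Red is positive and blue is negative, and the black line divides the 2 Fayoumi arrays at 16 h, on which the clones were chosen and all exceed 1, from the other 9.

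In Leghorn spleen at 2 h, 1 clone passed, DKFZ426_10N20. This is 0.265% of the library, against 41 of all probes (0.263%), so the library's share was that of the background. Its ratios were 2.48 and 2.49, a mean of 2.48 ± 0.01 (SD, n = 2 arrays; fitted SE 0.44, adjusted p = 0.0261 in limma). The 2 arrays otherwise opposed each other, with library medians of 0.15 and -0.64. In spleen at 16 h the clone was negative in Leghorn, with -0.18 and -0.99, and the difference, 16 h minus 2 h, was -3.07 (SE 0.62, adjusted p = 0.159). At 2 h it had 0.23 and -0.41 in Fayoumi spleen and 0.15 and -0.86 in broiler spleen, so both Leghorn arrays lay above the 4 others. The clone was chosen for its height on those Leghorn arrays. This order and the direction of the time difference thus follow in part from the choice. The F-test of the 3 lines gave an adjusted p of 0.449.

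DKFZ426_10N20 came to -0.01 once the replicate arrays' sign was turned, which follows by arithmetic from its nearly equal ratios on both arrays. Over the library, leaving out the replicate array of that group gave 0 clones and leaving out the first gave 6. Array weights (adjusted p = 1.00), a common spread of the arrays (0.614), spleen fitted alone (0.0717) and the values as deposited (0.0530) each ended its call in limma. Over all probes the spleen arrays of a round deviated together in the 3 lines. Over the 378 clones these deviations correlated between lines at 0.54 to 0.60 at 2 h, and at 16 h at 0.37 for both pairs with Fayoumi and at -0.13 for Leghorn and broiler. The fit used so far has no block for the round. With the round as a replicate block, 6 clones of the library passed in Leghorn spleen at 2 h, 3 positive and 3 negative. DKFZ426_10N20 was among them (adjusted p = 0.000520 in limma). For 16 h minus 2 h in Leghorn spleen the block gave 7 clones, 2 positive and 5 negative, with DKFZ426_10N20 again among them (adjusted p = 0.00540). The share of all probes under the block is not given here, so neither count is read as particular to the library.

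**Figure D4:**
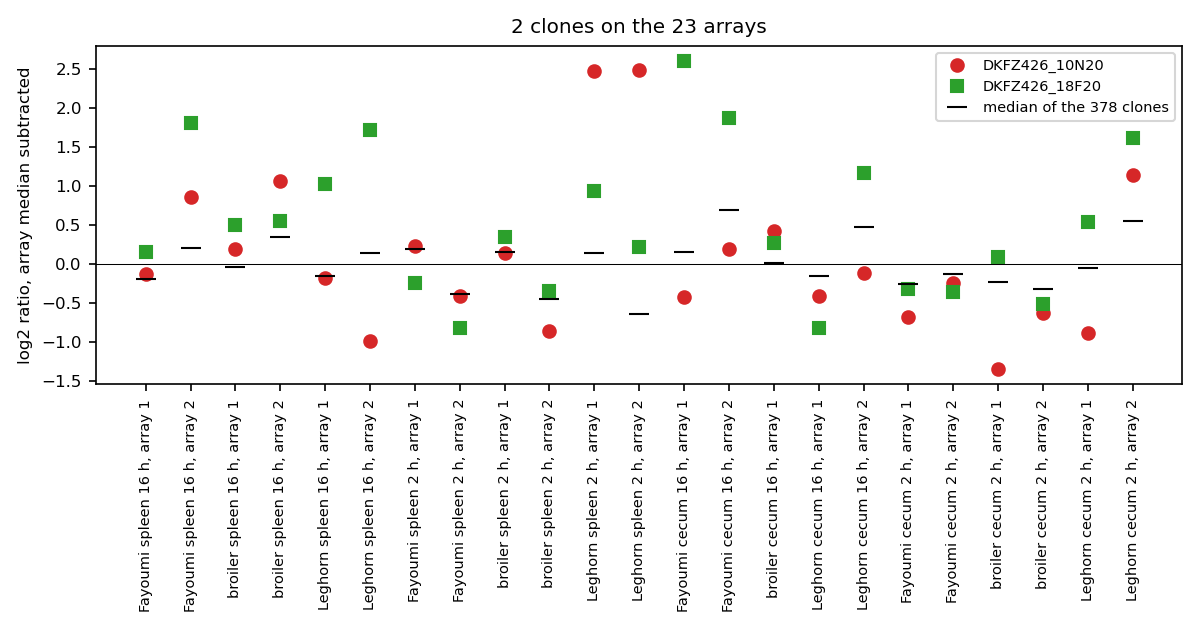
Log2 ratios, with the array median subtracted, of DKFZ426_10N20 (red circles) and DKFZ426_18F20 (green squares) on the 23 arrays, beside the median of the 378 clones (black bars). DKFZ426_10N20 stands at 2.48 and 2.49 in Leghorn spleen at 2 h and at no more than 1.14 elsewhere, and DKFZ426_18F20 is positive on all 6 spleen arrays at 16 h.

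In the other 10 groups 0 clones passed the adjusted threshold, which in Leghorn cecum at 16 h was passed by 0.0192% of all probes and in the other 9 by 0%. At an unadjusted p below 0.05, cecum at 16 h held 10 clones in broiler and 28 in Leghorn, against 1.92% and 6.75% of all probes, or 2.65% and 7.41% of the clones. Cecum at 2 h held 8 clones in Fayoumi (2.12%, against 2.22% of all probes), 16 in broiler (4.23%, against 2.96%) and 23 in Leghorn (6.08%, against 4.34%). Spleen at 16 h held 2 clones in Fayoumi, 0 in broiler and 9 in Leghorn, against 0.179%, 0.404% and 3.52% of all probes. Spleen at 2 h held 0 in Fayoumi, 5 in broiler and 14 in Leghorn, against 0.666%, 2.26% and 6.96%. In 5 of the 6 spleen groups the clones' share of such p-values was thus below that of all probes.

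The single broiler cecum array at 16 h held single clones with high ratios, chosen here after their values were seen. DKFZ426_14G14 had 3.01, DKFZ426_17O8 had 2.81 and DKFZ426_14G10 had 2.41. None passed, and the smallest adjusted p of the library there was 0.566 in limma.

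Averaged over the 3 lines, 0 clones passed in any tissue and time, and 0% of all probes did. This depended on the processing. Clones passed in spleen at 2 h with the replicate arrays' sign turned, and in cecum at 16 h with the replicate block. Without those changes, an unadjusted p below 0.05 was held by 55 clones in cecum at 16 h (14.6%, against 8.81% of all probes), 4 in cecum at 2 h (1.06%, against 1.96%), 1 in spleen at 16 h (0.265%, against 1.08%) and 16 in spleen at 2 h (4.23%, against 4.45%). Clones with 1 sign on every array of a tissue and time were most frequent in cecum at 16 h, where 21 clones (5.56%) were positive on all 5 arrays, against 3.38% of all probes, and 3 (0.794%) were negative, against 2.56%. In cecum at 2 h, 1 clone was positive and 8 (2.12%) were negative on all 6 arrays, against 1.31% and 1.29% of all probes. In spleen at 16 h, 6 (1.59%) were positive and 1 (0.265%) was negative, against 0.942% and 1.16% of all probes. In spleen at 2 h, 0 were positive and 3 (0.794%) were negative, against 0.794% and 0.826%.

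Few of the clones that held 1 sign through the 3 lines had a mean as large as 1. In cecum at 16 h, DKFZ426_30H20 had 0.92 and 1.32 in Fayoumi, 0.74 in broiler and 0.57 and 1.85 in Leghorn, a mean over the lines of 1.03 (SE 0.25, adjusted p = 0.226 in limma). DKFZ426_5G11 averaged 1.17 (SE 0.36, adjusted p = 0.298), with 0.39 and 1.71 in Fayoumi, 0.58 in broiler and 0.60 and 3.19 in Leghorn. For both, the second Leghorn array gave the highest value. Of the 3 clones negative on all 5 arrays, the largest means were those of DKFZ426_1M17, with -0.33 (SE 0.23), and DKFZ426_20A8, with -0.30 (SE 0.25).

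In cecum at 2 h, the most negative of the 8 negative clones were DKFZ426_11B12, with a mean over the lines of -0.52 (SE 0.26), and DKFZ426_19K19, with -0.48 (SE 0.17). The one positive clone was DKFZ426_1I24, with 0.05 and 0.22 in Fayoumi, 0.09 and 0.40 in broiler and 0.43 and 1.39 in Leghorn, a mean of 0.43 (SE 0.23). These 2 were not negative throughout at 16 h: DKFZ426_11B12 had 0.09 and 1.44 in Fayoumi cecum and DKFZ426_19K19 had 0.15 and 0.37.

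In spleen at 16 h, DKFZ426_18F20 was positive on all 6 arrays, with 0.16 and 1.81 in Fayoumi, 0.50 and 0.55 in broiler and 1.03 and 1.72 in Leghorn, a mean over the lines of 0.96 (SE 0.27, adjusted p = 1.00 in limma). It is the clone that also passed in Fayoumi cecum at 16 h. DKFZ426_9E2 averaged 0.35 (SE 0.25) and DKFZ426_11C10 averaged -0.28 (SE 0.15), and DKFZ426_11C10 was positive on all 5 cecum arrays at 16 h, from 0.11 to 0.60. In spleen at 2 h, DKFZ426_17B19 averaged -0.32 (SE 0.19) and DKFZ426_16O19 averaged -0.28 (SE 0.19), negative on all 6 arrays. None of the clones in these groups passed.

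The question of the 3 lines was put to each clone in an F-test, which 0 clones and 0% of all probes passed at each tissue and time. Unadjusted p-values below 0.05 were held by 35 clones in cecum at 16 h (9.26%, against 6.69% of all probes), 14 in cecum at 2 h (3.7%, against 3.14%), 3 in spleen at 16 h (0.794%, against 0.698%) and 3 in spleen at 2 h (0.794%, against 2.13%). With the replicate block the spleen counts were 1 clone for 2 h and 0 for 16 h, without the share of all probes beside them. The smallest adjusted p in cecum at 16 h was that of DKFZ426_9H18 (0.369), which was positive in Fayoumi and negative in broiler (-0.60) and Leghorn. In cecum at 2 h it was that of DKFZ426_9H1 (0.999), with -1.07 and -0.50 in Fayoumi, 0.04 and -0.38 in broiler and 0.85 and 1.61 in Leghorn. In spleen at 16 h it was that of DKFZ426_10C10 (1.00), with 0.01 and 0.45 in Fayoumi, -0.54 and 0.66 in broiler and -0.58 and -2.63 in Leghorn.

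As a body, the clones of the lines differed most in cecum at 2 h. The median of Fayoumi minus Leghorn over the clones was -0.50, negative in 304, and that of broiler minus Leghorn was -0.62, negative in 305. Other clone names showed the same order of lines. The Pat clones had group medians of -0.32 in Fayoumi, -0.33 in broiler and 0.37 in Leghorn. The DT40subNB clones had -0.18, -0.29 and 0.27. The Leghorn arrays themselves lay apart there, with library medians of -0.05 and 0.55. No clone passed in a pairwise difference between lines in any tissue and time, nor did any other probe (0%).

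The 2 times were compared within each line and tissue, and 0 clones passed in all 6 comparisons, against 0.0192% of all probes in Leghorn spleen and 0% in the other 5. With the replicate block, the 7 clones given above passed in Leghorn spleen and 0 in Fayoumi and broiler spleen. The block is given for spleen, beside the fit without it, because the arrays of a round deviated together there over all probes. Array weights gave the 58 clones in Fayoumi cecum. The share of all probes under these 2 settings is not given here, so these counts are not read as particular to the library. The median of 16 h minus 2 h over the clones was 0.62 in Fayoumi cecum, positive in 300 clones and negative in 78. It was 0.27 in broiler cecum, -0.03 in Leghorn cecum, 0.12 in Fayoumi spleen, 0.27 in broiler spleen and 0.21 in Leghorn spleen. In Fayoumi cecum the Pat clones had group medians of 0.33 at 16 h and -0.32 at 2 h. The DT40subNB clones had 0.43 and -0.18. At an unadjusted p below 0.05, Fayoumi cecum held 66 clones (17.5%, against 12.7% of all probes), broiler cecum 16 (4.23%, against 2.34%) and Leghorn cecum 11 (2.91%, against 2.24%). Fayoumi spleen held 1, broiler spleen 3 and Leghorn spleen 15, against 0.243%, 1.87% and 7.74% of all probes.

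Over all 23 arrays the median SD of a clone was 0.58, the same as for all tested probes, with quartiles of 0.48 and 0.67 against 0.46 and 0.74. The clone that varied most was DKFZ426_13J21 (SD 1.12), which had 1.75 and 2.15 in Fayoumi cecum at 16 h, 3.43 on the second Leghorn cecum array at 16 h and -0.33 on the first. DKFZ426_5B1 (SD 1.09) had 0.57 and 2.14 in Fayoumi cecum at 2 h and -2.87 and 0.35 in Leghorn cecum at 16 h. The steadiest were DKFZ426_14O15 (SD 0.26) and DKFZ426_1P7 (SD 0.27), and 71 clones exceeded 1 in either direction on no array.

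No clone kept 1 sign on all 23 arrays. DKFZ426_1I24 was positive on 17 arrays and DKFZ426_18F20 on 16, and DKFZ426_15C16 was negative on 18 and DKFZ426_17D10 on 17. Clones with 17 or more positive arrays made up 0.265% of the library, against 0.865% of all probes, and clones with 17 or more negative arrays 1.06%, against 0.846%. Among the 20 plate numbers with 10 or more clones, the plate median in Fayoumi cecum at 16 h ran from -0.09 on plate 16 to 0.92 on plate 17.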

How the data were processed

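For 24 arrays the authors deposited a single value per spot, taken as the log2 ratio between channels. The base was inferred only from the values 1 and 1.585 in the broiler cecum 16 h replicate column. What that column holds is not known, so the base of the arrays used is an assumption. The sources used here give no scanner, background correction or normalization. The broiler cecum 16 h replicate column holds no ratios and was left out. Without intensities, background correction and a filter on dim probes could not be varied. Each array was centred on its median over the 15609 tested probes, leaving out 160 control spots.

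All probes entered a fit by lmFit and eBayes (limma 3.58.1, R 4.3.3), with a mean for each of 12 groups and 11 residual degrees of freedom. This main fit held no block for the round of arrays. Tests were two-sided, with Benjamini-Hochberg adjustment within a comparison and a threshold of 0.05, and the fit was tested on simulated data. Other steps used Python 3.11.15.

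The clones and all lists were chosen with earlier results of these data known. Clones were named where 20 or fewer passed in a comparison (otherwise the 10 largest), as the 2 most positive and 2 most negative means over lines with 1 sign on all arrays, for the smallest p of line and time tests, and for the extremes of sign count and SD over arrays. Gene and marker lists could not be read, since 0 of 15769 identifiers matched the gene table. The titles mark replicates alike in both tissues. Replicate minus first differences over all probes correlated between lines at 0.73 to 0.78 in spleen at 2 h and 0.37 to 0.71 at 16 h. Spleen arrays were therefore read as paired by round in the replicate block, which is an alternative. The main fit leaves this pairing out, so its spleen p-values are unpaired. In cecum they correlated at -0.05 to 0.20 at 2 h and at 0.25 for Leghorn and Fayoumi at 16 h. Cecum arrays were not taken as paired. Alternatives were the sign of the replicate arrays, no centring, a common spread, a replicate block, array weights, each tissue alone, and leaving out each array.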

Additional observations from a re-analysis of the deposited data

Results flagged for a closer look

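Among the 20 clones past the threshold in a group, 17 cases were found in which the arrays of that group all lay on 1 side of 0 and those of a group differing in time, line or tissue all lay on the other. Clones below the threshold were not searched for such cases. The clones were chosen for their departure from 0 in that group, so their side of 0 there follows from the choice. For 11 of the clones chosen in Fayoumi cecum at 16 h, both 16 h arrays were positive and both 2 h arrays negative. Of all 378 clones, 194 were negative on both 2 h arrays. The difference, 16 h minus 2 h, was 2.65 for DKFZ426_7D4, 2.58 for DKFZ426_18F20, 2.55 for DKFZ426_2P19, 2.38 for DKFZ426_9H18, 2.16 for DKFZ426_20D19 and 1.97 for DKFZ426_19E16. It was 1.92 for DKFZ426_29H1, 1.82 for DKFZ426_13P5, 1.74 for DKFZ426_6H6, 1.72 for DKFZ426_6I10 and 1.64 for DKFZ426_9H14. None passed limma's test (adjusted p 0.154 to 0.167).

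Against Leghorn cecum at 16 h, Fayoumi was positive on both arrays and Leghorn negative on both for 2 clones. These were DKFZ426_9H18, with a difference of 2.82, and DKFZ426_19O22, with 2.35 (adjusted p = 0.300 for each in limma). Of all 378 clones, 46 were negative on both of those Leghorn arrays. Fayoumi cecum at 16 h opposed Fayoumi spleen at 16 h for DKFZ426_19O22, with cecum minus spleen of 1.97, DKFZ426_9H14, with 1.72, and DKFZ426_6I10, with 1.37. These differences were not tested, and 54 of all 378 clones were negative on both Fayoumi spleen arrays at 16 h. Every spleen slide had a lower number than every cecum slide, so a difference by tissue is also a difference by slide number. In Leghorn spleen, DKFZ426_10N20 was negative on both arrays at 16 h and positive on both at 2 h, with 16 h minus 2 h of -3.07 (adjusted p = 0.159 in limma). Of all 378 clones, 98 were negative on both Leghorn spleen arrays at 16 h.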

How the results depend on the processing

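Counts are of DKFZ426 clones past the threshold, and the cause of a change was not tested. The share of all probes under each setting is not set beside them, so no count is read as particular to this library. With the replicate arrays' sign turned, Fayoumi cecum at 16 h held 0, Leghorn spleen at 2 h 4, the mean over lines in spleen at 2 h 25 and 16 h minus 2 h in Leghorn spleen 2. As deposited, Fayoumi cecum at 16 h and Leghorn spleen at 2 h each held 0. With arrays scaled to a common spread, Fayoumi cecum at 16 h held 35, broiler cecum at 16 h 2, Leghorn spleen at 2 h 0 and 16 h minus 2 h in broiler cecum 3. With the replicate block, which moves the single broiler cecum array at 16 h by a term taken from the other lines, Fayoumi cecum at 16 h held 92 (all 19 among them), Leghorn cecum at 16 h 7, Leghorn spleen at 2 h 6, and the mean over lines in cecum at 16 h 70, among them DKFZ426_5G11 (1.498, adjusted p = 0.00069 in limma) and DKFZ426_30H20 (1.17, adjusted p = 0.0021). Under that block, 16 h minus 2 h gave 7 in Leghorn spleen, 58 in Fayoumi cecum and 3 in broiler cecum (DKFZ426_9H18 in Fayoumi cecum, adjusted p = 0.0027 in limma), and the F-test of lines gave 1 for spleen at 2 h and 3 for cecum at 16 h. Array weights gave 72 in Fayoumi cecum at 16 h, 58 for 16 h minus 2 h there and 0 in Leghorn spleen at 2 h, and spleen fitted alone gave 0 in Leghorn spleen at 2 h.

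Leaving out 1 array at a time, Fayoumi cecum at 16 h held 0 (without either of its arrays) to 44 (without either Leghorn cecum array at 16 h), and Leghorn spleen at 2 h 0 (without its second array) to 6 (without its first). Leghorn cecum at 16 h held 0 to 17 and the mean over lines in cecum at 16 h 0 to 30, both highest without the first Leghorn array. The 16 h minus 2 h counts ran from 0 to 3 in Leghorn spleen and from 0 to 4 in Fayoumi cecum.

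For a clone positive on both arrays of a group, the direction after turning the replicate's sign shows only which array read higher. With the sign turned, these named clones changed direction in Fayoumi cecum at 16 h: DKFZ426_6I10 (-0.30), DKFZ426_19D16 (-0.19), DKFZ426_13K3 (-0.14), DKFZ426_13J2 (-0.12), DKFZ426_19O22 (-0.12), DKFZ426_6H6 (-0.11), DKFZ426_8O11 (-0.0692) and DKFZ426_19E16 (-0.0275). So did DKFZ426_10N20 in Leghorn spleen at 2 h (-0.0054) and between its times (0.41), and, as means over lines, DKFZ426_16O19 (0.0116), DKFZ426_18F20 in spleen at 16 h (-0.40), DKFZ426_9E2 (-0.0457), DKFZ426_1I24 (-0.24), DKFZ426_5G11 (-0.46), DKFZ426_30H20 (-0.0322) and DKFZ426_1M17 (0.15). As deposited, DKFZ426_17B19 (0.30) and DKFZ426_16O19 (0.34) turned positive.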

Other observations

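The broiler cecum 16 h replicate column, left out above, was blank for 279 of the 378 DKFZ426 clones (73.8%), against 37.8% of all rows. It held the value 1 for 76 clones and 1.585 for 23. Among the other clone names, the Pat clones were blank in 77.1% of rows, the DT40subNB clones in 54.9% and the C00041 clones in 27.4%. Of the 19 clones that passed at 16 h in Fayoumi cecum, 10 were blank there.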
